A study of Mus musculus with 26 samples.

Results

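The cytosolic ribosomal protein genes are described here in mouse pancreatic islets across age, glucose concentration, culture and hours of glucose exposure. They were taken by symbol: Rpl or Rps followed by a number and an optional letter, X or l, or Rplp0, Rplp1, Rplp2 or Rpsa, without the Rps6k kinases and without symbols ending as pseudogenes. The gene table holds 84 such symbols, of which 81 are protein coding. A probe set that names 1 gene was found for 46 of them, out of 18193 genes measured by such probe sets. These 46 comprise 24 genes of the large subunit (Rpl) and 22 of the small subunit (Rps). Of the other 38 symbols, 28 lie on probe sets that name several genes and 10 on none, so that Rpl3, Rpl5, Rpl10, Rpl10l, Rplp1 and Rps27a are not analysed here. Each gene was read from the brightest of its probe sets that name 1 gene. Some of the 46 genes, among them Rps2, Rps19, Rps6, Rpl12 and Rpl37, also lie on probe sets that name several genes, which were not used. Of the 46, 43 were above the median of an array on at least 2 of the 26 arrays (22 Rpl, 21 Rps). Rpl3l, Rpl39l and Rps16 were not, and are described by their signals only.

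A ribosome has a small 40S subunit, which holds the mRNA and decodes it, and a large 60S subunit, which joins the amino acids. Each subunit carries a fixed set of proteins on its ribosomal RNA, and most of them are needed in equal amounts. Their mRNAs begin with a run of pyrimidines (the terminal oligopyrimidine or TOP motif) through which the nutrient-sensing kinase mTORC1 controls their translation, so that a level of mRNA is not a rate of synthesis. Beta cells, the main cell type of the islet, translate large amounts of proinsulin, and glucose is known to raise that translation.

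Islets were isolated from wild-type C57BL6 mice, labelled as male, that were young (5 weeks) or old (56 weeks). Cultured islets recovered for 1 day in medium with 11 mM glucose and then spent 2 days at 3, 5.5 or 11 mM glucose, or, for young islets, at 16 mM. Further samples were fresh islets of each age, and young islets of a time course, which also recovered for 1 day at 11 mM glucose. These were taken after an overnight period at 3 mM (time 0), or after 1 h or 4 h at 11 mM that followed it. There are 12 groups of 2 arrays each, save that young islets at 11 mM have 4. The labels call the replicates biological and do not mention pooling of mice. The p-values below measure the spread between these samples. The values are probe set signals (MAS5 intensity), already scaled by the authors to 1 level, so an array-wide change in RNA cannot be seen. A log2 change is on the log2(signal + 16) scale, with limma's moderated standard error (SE). A gene rose, fell or passed, as used below, where limma's test gave an adjusted p under 0.05 (Benjamini-Hochberg over all 12580 genes). The scale understates the change of dim genes. In bulk islets, fewer cells of a type and less RNA per cell cannot be told apart.

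All arrays carried beta cell markers, of which 9 summed to a signal of 16256 to 58453. The sum differed between groups: 19121 to 21587 in young islets at 3 mM, 32592 to 37510 on the comparable arrays at 11 mM, 39808 to 44951 at 16 mM, and in old islets 21454 to 23198 at 3 mM and 39109 to 47397 at 11 mM. The summed signal of 11 acinar cell markers was 12127 to 43814 in fresh islets, 181 to 1399 in islets cultured for 2 days and 267 to 7326 in the time course. Endothelial markers (10 genes) summed to 3127 to 3630 in fresh islets and 369 to 776 after 2 days of culture. Duct cell markers (4 genes) were lower at 11 than at 3 mM. They summed to 2371 to 2598 in young islets at 3 mM and 1807 to 2000 on the comparable arrays at 11 mM. In old islets they summed to 2737 to 2813 at 3 mM and 2040 to 2203 at 11 mM. Beta cell markers rose between 3 and 11 mM for 5 of 9 genes in young and 7 of 9 in old islets, where no acinar or fibroblast marker passed. Of all genes, 13.3% rose in young and 13.9% in old islets between these concentrations. The cell type markers moved with the comparisons below, and their part in the ribosomal protein values was not tested.

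An unlabelled difference between arrays bears on all of this. On 12 arrays the Gapdh control read 1.03 to 1.48 times as high at its 5' end as at its 3' end (set A, which holds the old islets, the fresh young islets and young 11 mM replicates 3 and 4). On the other 14 (set B) this ratio did not exceed 0.277. Only young islets at 11 mM have arrays in both sets, and there 21 of the 43 genes differed between the sets, 18 of them higher in set A and 3 lower, against 39.7% of all genes tested (15.5% higher, 24.1% lower). Rps24 was at 7256 and 8389 in set A and at 3135 and 3020 in set B. Rps19 was at 3578 and 3610 against 1662 and 1522, and Rpl37 at 682 and 729 against 188 and 199. Rps2 was on the other side, at 2730 and 2470 in set A against 3729 and 3369 in set B. The groups of arrays did not overlap for any of these 4 genes, although all 4 arrays carry the same label. The set was therefore a term of the model, and every comparison with young islets at 11 mM rests on the arrays of the matching set. Old and young islets at 3 mM lie in different sets, and their levels are not compared.

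**Figure D1:**
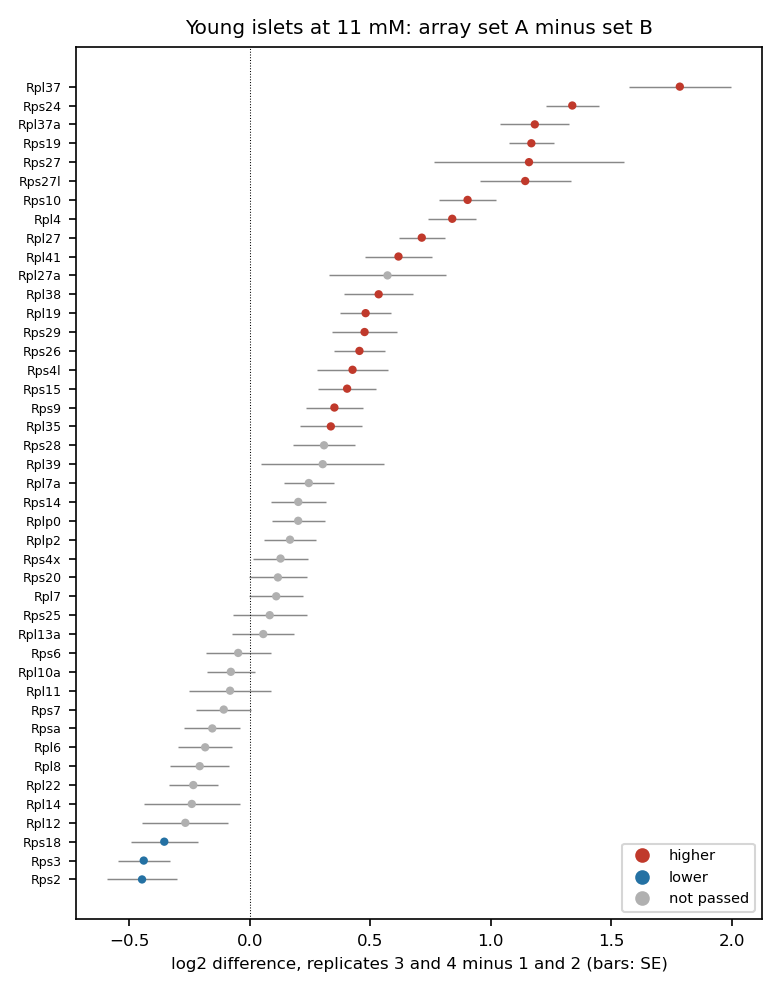
Difference between the array sets within young islets at 11 mM for each of the 43 genes, as log2(signal + 16) of replicates 3 and 4 (set A) minus replicates 1 and 2 (set B); bars are SE, red genes were higher in set A, blue genes lower, and grey genes did not pass the test. Rpl37, Rps24, Rpl37a and Rps19 lie farthest to the right, at log2 differences of 1.78, 1.34, 1.18 and 1.17.

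The probes gave strong signals for most of the genes. The median signal over the 26 arrays was above 1000 for 34 of the 43 and below it for 9 (Rpl12, Rpl14, Rpl27a, Rpl37, Rpl39, Rps25, Rps27, Rps4l and Rps6), with a range of 85.5 to 9540.5. Signals of different probe sets depend on their probes, so this range is no order of mRNA abundance. Rps6, the small-subunit protein that S6 kinase phosphorylates, read only 463 to 985. Rps6 and the other dim genes save Rps4l also lie on probe sets that name several genes, which were left out. The 3 genes that failed the filter were near 0. Rpl3l, a paralog of Rpl3 known from muscle, read 1 to 30, and Rpl39l, a paralog of Rpl39 known from testis, read 1 to 17. Rps16 was listed at 0 on 19 of the 26 arrays, which for a gene every cell uses says only that this probe set gave no signal. Ribosomal protein genes have many processed copies, and 16 of the 43 probe sets carry the suffix _x_at or _s_at, by which the array's maker marks probes that can match related transcripts. Their values are less certain for that reason. The 16 include those of Rpl35, Rpl22 and Rps2, and Rps2 has no other probe set that names 1 gene.

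In young islets, 14 of the 43 genes were lower at 11 mM than at 3 mM glucose and none was higher, against 26.4% of all genes tested (13.1% lower, 13.3% higher). The shift ran through the family: 41 of the 43 log2 changes were below 0, with a median of -0.22 where all genes had a median of 0.05. Both subunits took part, with 7 of 22 Rpl genes and 7 of 21 Rps genes past the threshold. The falls ranged from 1.23-fold to 1.82-fold. The arrays of the groups did not overlap for 25 of the 43, against 62.1% of all genes.

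Among small-subunit genes, Rps2, whose protein lies at the mRNA entry channel, was at 5590 and 6962 on the 3 mM arrays and at 3729 and 3369 on the 11 mM arrays. All arrays at 11 mM were below all arrays at 3 mM, a log2 change of -0.81 (SE 0.14, adjusted p = 0.000321). Rps19, a gene mutated in the inherited red-cell failure Diamond-Blackfan anaemia, went from 2271 and 2642 to 1662 and 1522 without overlap, a log2 change of -0.62 (SE 0.09, adjusted p = 6.79e-05). Rps26 (-0.61) and Rps24 (-0.54), further genes of that disease, fell too, as did Rps9 (-0.48), Rps25 (-0.46) and Rpsa (-0.42), which also serves as a laminin receptor.

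Among large-subunit genes, Rpl27 was at 3533 and 3712 at 3 mM and at 2258 and 2293 at 11 mM, with no overlap and the smallest adjusted p of the family (log2 change -0.67, SE 0.09, adjusted p = 3.77e-05). Rpl35, which lies at the mouth of the peptide exit tunnel, went from 4806 and 6232 to 3375 and 3769, again without overlap (log2 change -0.62, SE 0.13, adjusted p = 0.00141). Its 3 mM arrays differed from each other by more than its 11 mM arrays did. Rpl22, which also binds other RNAs outside the ribosome, went from 5417 and 6534 to 4728 and 4285 (-0.40), and Rpl10a from 3953 and 4587 to 3423 and 3500 (-0.30). Rpl19 fell by 0.39 on the log2 scale. Rpl12, a protein of the base of the stalk, was at 179 and 200 against 97 and 96 (-0.87), and Rpl37 at 281 and 390 against 188 and 199 (-0.73), both on dim probe sets. The stalk itself did not pass the test: Rplp0 was at 5497 and 6020 at 3 mM and at 6111 and 5371 at 11 mM, with overlapping arrays (-0.01, 95% interval from the moderated SE -0.24 to 0.22), and Rplp2 had a log2 change of -0.17.

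The count rests partly on single arrays. Young replicate 2 at 3 mM had higher signals than replicate 1 for most of the genes, with medians of the family at log2 12.56 and 12.26, and without that replicate 7 genes passed in place of 14. Without replicate 2 at 11 mM 9 passed. Without the array set as a term, so that all 4 arrays at 11 mM were averaged, 12 passed, 11 lower and 1 higher, and 8 of the 14 falls remained. In that fit Rpl37 (0.16) and Rps24 (0.13) turned sign and Rps19 had a log2 change of -0.03. With quantile normalization 22 passed, all lower.

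At 16 mM young islets again had mostly falls. Against 3 mM, 11 genes passed, 9 lower and 2 higher (28.7% of all genes, 14.2% lower and 14.5% higher), with a median of -0.14. Rps2 was at 2821 and 3810 (log2 change -0.92, SE 0.14, adjusted p = 7.19e-05), and Rps24 at 2676 and 2984 (-0.67). Rps19 (-0.58), Rps26 (-0.55), Rps9 (-0.46), Rpl22 (-0.40) and Rpl27 (-0.33) also fell, as did Rpl37 (-0.86) and Rpl12 (-0.84). Rplp0 was at 6665 and 8123 against 5497 and 6020 at 3 mM, without overlap, and rose (log2 change 0.35, SE 0.11, adjusted p = 0.0192). Rps4l, an Rps4x-like copy listed as a pseudogene, read 650 and 536 against 418 and 378 and rose (0.55). Without replicate 2 at 3 mM 7 genes passed, and with quantile normalization 23 did, 1 higher and 22 lower. Between 16 and 11 mM themselves, which share the 3 mM arrays as a base above, no gene of the family passed limma's test, where 0.00795% of all genes did. At an unadjusted p under 0.05 there were 5, all higher at 16 mM: Rpl27, Rplp0, Rpl41, Rplp2 and Rpl35 (8.44% of all genes, 4.58% higher). The log2 differences had a median of 0.12, against -0.02 for all genes. They were above 0 for 36 of the 43, against 45.5% of all genes. Other probe sets of 3 of the 5 genes lay below 0. The log2 difference ran from -0.10 to 0.34 for Rpl27, -0.25 to 0.36 for Rpl41 and -0.05 to 0.27 for Rpl35.

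The step from 3 to 5.5 mM moved few of these genes. In young islets only Rpl12 passed, at 129 and 103 against 179 and 200 (log2 change -0.64, SE 0.18, adjusted p = 0.0357), against 6.06% of all genes (2.97% higher, 3.08% lower). No gene passed without young replicate 1 or 2 at 3 mM or without replicate 2 at 5.5 mM, and 2 passed with same-numbered cultured young arrays as blocks. In old islets none passed, against 4.69% of all genes (2.39% higher, 2.3% lower), and 3 had an unadjusted p under 0.05 in limma's test: Rpl39 and Rps25 lower and Rps6 higher (18.7% of all genes). With same-numbered young arrays as blocks 1 gene passed in old islets. Rps6 was at 766 and 773 at 5.5 mM and at 624 and 547 at 3 mM in old islets (log2 change 0.39, adjusted p = 0.106), and at 882 and 985 against 680 and 775 in young islets (0.35, adjusted p = 0.13). Neither difference passed. Rps2 read close to its 3 mM signals, at 5638 and 5631 in old and 5780 and 5585 in young islets, with log2 changes of 0.06 and -0.13.

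**Figure D2:**
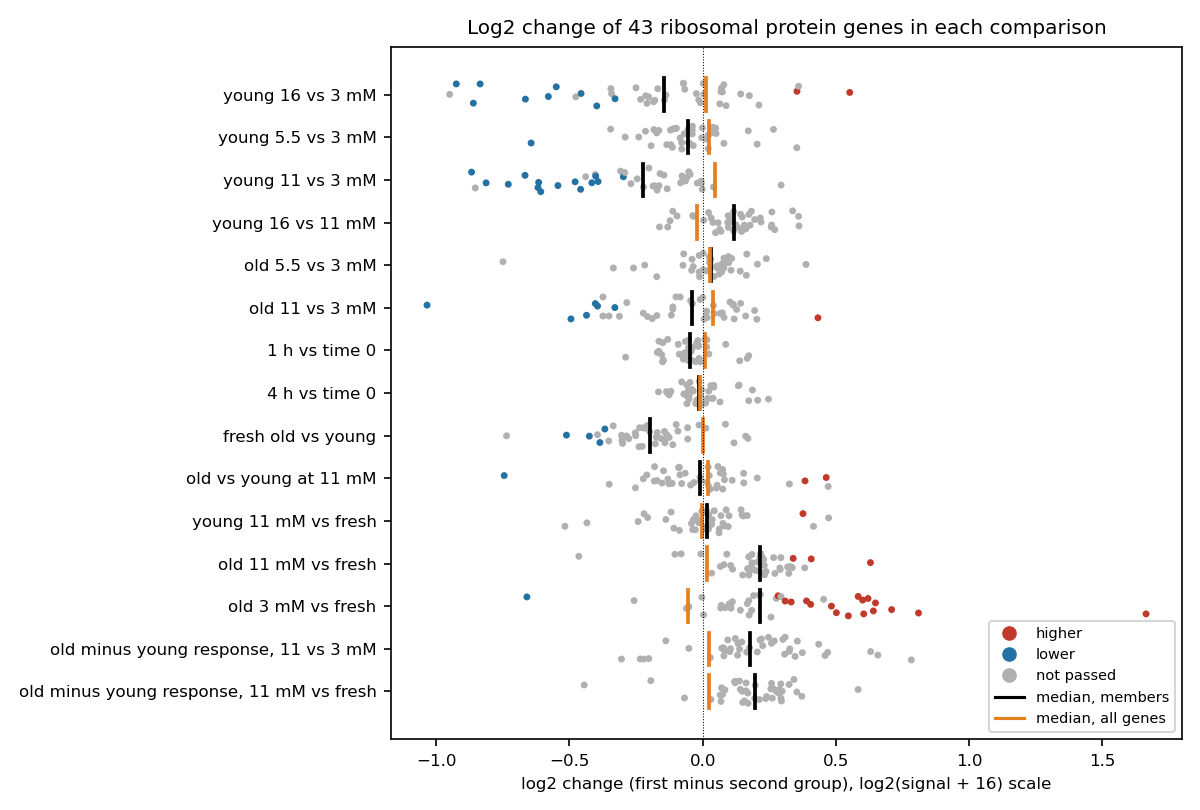
Log2 change of each of the 43 genes (points, spread vertically so that they can be told apart) in the 15 comparisons, on the log2(signal + 16) scale, with red points higher, blue points lower and grey points not past the threshold; the black bar is the median of the 43 and the orange bar that of all genes tested. In young islets the median at 11 against 3 mM lies at -0.22 and the 14 genes past the threshold are all blue, while in old islets at 3 mM against fresh it lies at 0.22 with 17 red genes and 1 blue.

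In old islets 6 of the 43 genes were lower at 11 mM and 1 was higher, against 24.6% of all genes (10.6% lower, 13.9% higher). The 6 of 43 that were lower lie near the share of all genes, and the median of the family was -0.04, with 23 of the 43 below 0. For 25 of the 43 the arrays of the groups did not overlap, against 60% of all genes. The largest of the falls that passed was that of Rps2, read from a single probe set of the _x_at kind. Rps2 was at 5719 and 5135 at 3 mM, 5638 and 5631 at 5.5 mM and 2672 and 2603 at 11 mM. The 11 mM arrays lie below all those of the other glucose groups and close to each other (log2 change -1.03, SE 0.14, adjusted p = 3.61e-05, a 2.05-fold fall). Rps18 went from 6991 and 7281 to 5066 and 5054 (-0.49) and Rps19 from 4064 and 4538 to 3122 and 3372 (-0.40). Over 3 probe sets of Rps18 the log2 change ran from -0.49 to -0.11, the largest fall being that of the _x_at probe set used here. Rpl10a went from 4722 and 4678 to 3324 and 3623 (-0.44), Rpl35 from 6013 and 6413 to 4779 and 4662 (-0.39), and Rpl22 from 5343 and 5053 to 3977 and 4293 (-0.33). The arrays did not overlap for any of these 6 genes. Rps4l was at 653 and 709 at 3 mM and at 985 and 867 at 11 mM and rose (0.43). Between 3 and 5 genes passed when 1 array was left out: 3 without replicate 1 or 2 at 3 mM or replicate 1 at 11 mM. Without the array set as a term 2 passed, with each array centred on its median 7 passed, all lower, and with same-numbered young arrays as blocks 11 passed.

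Young and old islets share 5 of these falls. Rpl10a, Rpl22, Rpl35, Rps19 and Rps2 passed at both ages, which is 35.7% of the 14 young falls and 83.3% of the 6 old ones. Of these genes, Rpl35 and Rps2 were read from _x_at probe sets and Rpl22 from an _s_at one. Over all genes tested, 53.7% of the young falls were old falls too, and 66.2% of the old falls were young ones. The 2 comparisons have no array in common. For 23 of the 43 genes the log2 change was below 0 at both ages, for 2 it was above 0 at both, and for 18 it was below 0 in young and above 0 in old islets. The old value lay above the young one for 37 of the 43 (86.0%), against 53.0% of all genes. Tested directly as a difference between the ages, no gene of the family passed limma's test (0.143% of all genes did, 0.103% higher and 0.0397% lower). With same-numbered young arrays as blocks 1 did. In the fit without blocks 8 (18.6%) had an unadjusted p under 0.05, all with a higher value in old islets, against 10.1% of all genes (6.10% higher, 4.04% lower). Rps24 came nearest: it was at 4004 and 5037 at 3 mM and 3135 and 3020 at 11 mM in young islets, but at 6972 and 7707 and then 7904 and 7971 in old ones. The log2 changes were -0.54 and 0.11, and their difference was 0.66 (SE 0.16, adjusted p = 0.107). The other 7 were Rpl12 (0.78), Rps9 (0.47), Rpl27 (0.46), Rps26 (0.44), Rps10 (0.37), Rpl19 (0.35) and Rpl4 (0.31). Other probe sets of these genes gave other sizes. The difference ran from 0.20 to 0.66 for Rps24, 0.07 to 0.47 for Rps9, -0.02 to 0.46 for Rpl27 and 0.25 to 0.57 for Rps10. In old islets alone, the 5 probe sets of Rps24 had log2 changes of -0.24 to 0.11. The young and old arrays of this comparison lie in different array sets, so age and array set cannot be told apart in these differences.

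**Figure D3:**
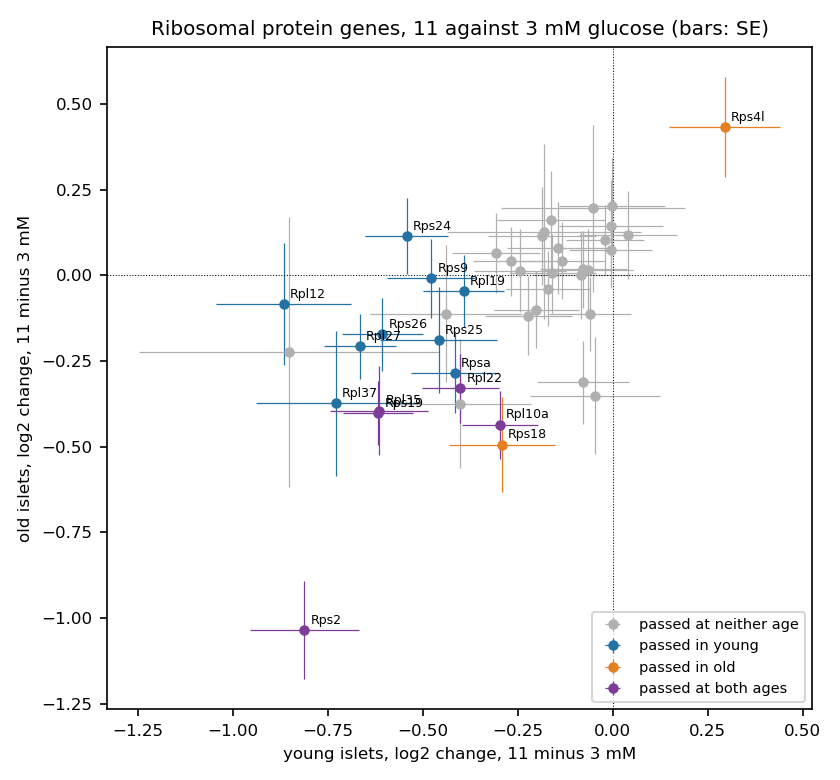
Log2 change between 11 and 3 mM in young islets (horizontal) and in old islets (vertical) for the 43 genes, with bars of 1 SE; colours mark the genes that passed the test at neither age, in young, in old or at both ages. Rps2 lies lowest, at -0.81 in young and -1.03 in old islets, and 18 genes lie left of 0 and above 0.

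The 5 genes that fell at both ages are shown with the 100 bases before and 20 bases after their first listed transcription start, since the pyrimidine run that defines TOP mRNAs begins at the start site of the mRNA. Sequences are from RefSeq (GRCm38.p6), 5′ to 3′ on the strand of the gene. Capitals mark the longest run of at least 6 letters made only of C and T that lies between 10 bases before and 20 bases after the start.
Rpl10a (chr17:28328371-28328490, + strand): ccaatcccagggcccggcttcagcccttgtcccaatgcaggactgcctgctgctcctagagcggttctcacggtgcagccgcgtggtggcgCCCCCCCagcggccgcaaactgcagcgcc
Rpl22 (chr4:152325626-152325745, + strand): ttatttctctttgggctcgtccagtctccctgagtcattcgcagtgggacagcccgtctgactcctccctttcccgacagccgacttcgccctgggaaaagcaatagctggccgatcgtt
Rpl35 (chr2:39005112-39005231, - strand): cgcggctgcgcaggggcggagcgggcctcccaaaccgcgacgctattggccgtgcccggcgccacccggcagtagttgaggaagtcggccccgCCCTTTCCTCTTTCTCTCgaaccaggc
Rps19 (chr7:24884492-24884611, + strand): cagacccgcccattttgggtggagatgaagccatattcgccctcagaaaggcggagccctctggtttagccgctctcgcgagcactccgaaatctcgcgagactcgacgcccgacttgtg
Rps2 (chr17:24719963-24720082, + strand): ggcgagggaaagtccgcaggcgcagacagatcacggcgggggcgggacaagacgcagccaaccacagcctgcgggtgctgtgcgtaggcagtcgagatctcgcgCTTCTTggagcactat
Of these runs only that of Rpl35 (18 bases) spans the listed start. The 7 bases of Rpl10a end 3 bases before it and so lie outside the listed transcript, and the 6 bases of Rps2 begin at its base 5. The windows of Rpl22 and Rps19 hold no run of that length at the listed start, and both genes have further listed starts. Of the 46 genes, 40 were found in the promoter table, and 60.0% of their first listed starts had such a run (24 of 40), against 28.6% of the first listed starts of all 27025 genes. Over all listed starts it was 56.25% (27 of 48) against 28.7% of 32851. The letters CGGAAG, the core that ETS factors such as GABP recognise, were in 72.5% of the 40 promoters over 300 bases on either strand (29 of 40), against 17.2% of the first listed promoters of all genes. Over all listed promoters it was 62.5% (30 of 48) against 16.9%. They are in none of the 5 windows printed. A match of letters is a description and no evidence of use.

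Over hours of glucose, no gene of the family passed the test. Whether the response over hours differs from that over 2 days was not tested. At 1 h at 11 mM none of the 43 differed from time 0 in limma's test (0.262% of all genes did, 0.183% higher and 0.0795% lower), and none had an unadjusted p under 0.05 (6.12% of all genes). At 4 h none differed either (11.4% of all genes did, 5.72% higher and 5.64% lower), again with none at an unadjusted p under 0.05 (23.7% of all genes), and the median log2 change was -0.01. The 95% interval of the change lay within 0.5 on the log2 scale for 35 of the 43 genes, so a change as large as that of Rps2 over 2 days would lie outside it for those. These p-values and intervals come from the fit without blocks, although same-numbered arrays of the time course deviated together (correlations of 0.55 to 0.63). Rps2 was at 5993 and 5495 at time 0, at 6546 and 4906 at 1 h and at 6118 and 5703 at 4 h, with overlapping arrays throughout. Rps19 was at 1905 and 1798, then 1742 and 1859, then 1806 and 1747. Rpl27 was at 2931 and 3310, then 2727 and 2889, then 3227 and 2900. The study has no islets left at 3 mM over these hours, so glucose and time in culture cannot be told apart here.

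Of 3 related genes outside the symbol rule, 2 passed at 4 h. Rpl22l1, the paralog of Rpl22, was at 2518 and 2996 at time 0, 2198 and 2316 at 1 h and 1709 and 1797 at 4 h, so that the 4 h arrays lay below all others of the time course. It fell at 4 h (log2 change -0.64, SE 0.10, adjusted p = 0.000448) and, in young islets over 2 days, fell between 3 and 11 mM (-0.65, adjusted p = 0.000141). In old islets its change was -0.12 (adjusted p = 0.463). Rpl7l1, a nucleolar paralog of Rpl7, rose at 4 h from 298 and 326 to 449 and 466 (0.53, adjusted p = 0.0182). Rps3a1, a protein of the small subunit whose symbol the rule leaves out, had a log2 change of -0.04 at 4 h.

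**Figure D4:**
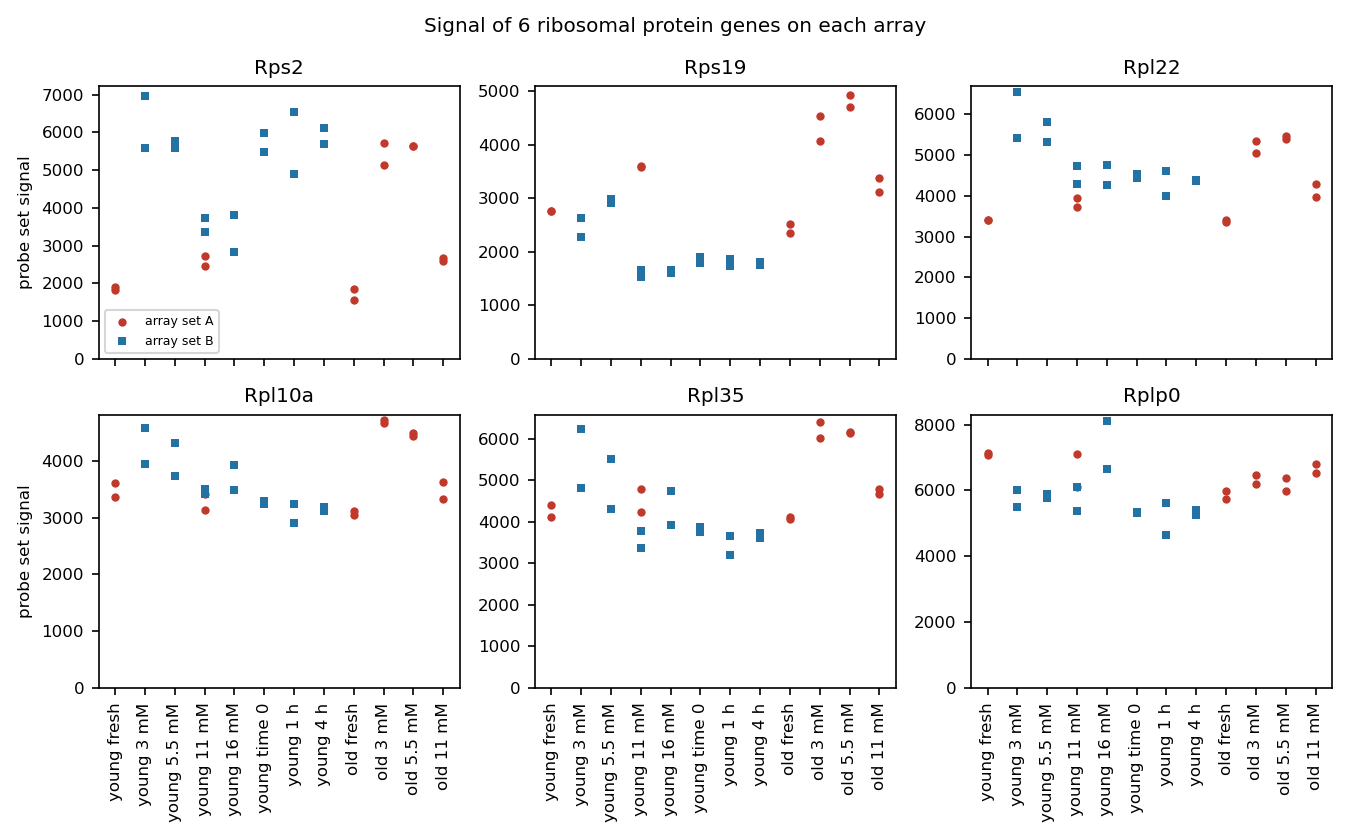
Probe set signal on each of the 26 arrays for the 5 genes that fell with glucose at both ages and for Rplp0, grouped along the horizontal axis by age and condition, with red circles for array set A and blue squares for set B; the vertical axis starts at 0. Rps2 is at 4906 to 6962 in all islets kept at 3 or 5.5 mM or in the time course, at 2470 to 3810 after 2 days at 11 or 16 mM and at 1557 to 1908 in fresh islets.

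Fresh islets allow 2 further readings, of age and of culture. Fresh old islets had lower signals than fresh young ones for 4 genes, Rpl41, Rps28, Rpl4 and Rps14, and higher ones for none, against 9.44% of all genes (5.75% higher, 3.7% lower). The arrays did not overlap for 34 of the 43, against 55.2% of all genes. The median over the family was -0.20, against 0.00 for all genes, and 38 of the 43 were below 0. Rpl4, a protein that lines the exit tunnel, was at 7046 and 6200 in old and 8803 and 8480 in young islets (log2 change -0.39, SE 0.10, adjusted p = 0.0196). Rpl41, which encodes the shortest of these proteins, was at 8869 and 6874 against 11282 and 10989 (-0.51), and both old arrays lay below both young ones. Rps28 was at 7003 and 6680 against 8940 and 9447 (-0.43) and Rps14 at 6139 and 5841 against 7832 and 7624 (-0.37). These are the brightest probe sets. With all 88 probe sets of the family tested, 5 were lower and 2 higher, against 3.04% and 4.10% of all probe sets. Both higher ones were dimmer probe sets. The log2 changes ran from -0.58 to 0.65 over 4 probe sets of Rpl41 and from -0.25 to 1.91 over 6 of Rps10. Markers of other cells moved with this comparison. Fibroblast and stellate cell markers were lower in old islets for 6 of 6 genes (median -1.22, 5 of them by over 2-fold), with the sum over 7 measured genes at 648 to 803 in old and 2246 to 3421 in young islets. Alpha cell markers were lower for 2 of 3 and delta and PP cell markers for 2 of 4. The 9 beta cell markers summed to 38465 to 50070 in old and 56152 to 58453 in young islets. Macrophage and leukocyte markers (10 genes) were on the other side, at 3966 to 4801 in old and 3183 to 3455 in young islets. Acinar markers summed to 23831 to 43814 in the old and 12127 to 21881 in the young arrays, with 11 of 11 above 0 and none past the threshold. The part of these cells in the ribosomal protein values was not tested. Without old fresh replicate 1 there were 2 genes past the threshold, without old fresh replicate 2 there was 1, and without either young array none. With each array centred on its median 9 passed, and with same-numbered young arrays as blocks 10. Other processing lowered the count: without the array set as a term none passed, and with quantile normalization 1 did. Without the filter, without the intensity trend or with the mean of a gene's probe sets, 2 passed each time.

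After culture at 11 mM 3 genes differed between the ages. Rps26 was at 3736 and 3651 in old and 2760 and 2893 in young islets (array set A) and was higher in old ones (log2 difference 0.38, SE 0.11, adjusted p = 0.0186). Rps4l was at 985 and 867 against 632 and 701 and was higher too (0.46). Rpl27a was lower, at 146 and 90 against 191 and 217 (-0.74), on a dim probe set. These 3 compare with 15.6% of all genes (10% higher, 5.59% lower), and the median of the family was -0.01. Fibroblast and stellate cell markers were lower in old islets here too, for 5 of 6 genes (median -1.54), with sums of 1331 to 1411 in old and 3962 to 4271 in young islets. Their part in the 3 differences was not tested. None of the 3 passed without old replicate 2 or without young replicate 3 or 4 at 11 mM, or with a replicate block within each array set.

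Of the study's 15 comparisons, old islets at 3 mM against fresh old islets had the most genes of the family past the threshold. There, 17 of the 43 genes were higher after 2 days at 3 mM and 1 was lower, against 35.1% of all genes (16.6% higher, 18.5% lower), with a median of 0.22 where all genes had -0.06. The arrays did not overlap for 31 of the 43, against 69.7% of all genes. Rps2 was at 5719 and 5135 after culture and at 1557 and 1853 when fresh, so that the arrays lay far apart (log2 change 1.66, SE 0.14, adjusted p = 6.85e-08, a 3.17-fold rise). Rps19 was at 4064 and 4538 against 2359 and 2528 (0.81), and Rps18 at 6991 and 7281 against 4301 and 4414 (0.71). Over 3 probe sets of Rps18 the log2 change ran from 0.41 to 0.71. Rps27l, a paralog of Rps27 and a known p53 target, was at 3337 and 3194 against 2134 and 2043 (0.64).

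On the large-subunit side Rpl8, a protein near the catalytic centre, was at 5357 and 5992 against 3516 and 3702 and rose (0.65). Rpl22 rose by 0.62, Rpl10a and Rpl35 by 0.60 each, and Rpl11, which can bind the p53 regulator Mdm2, by 0.58, from 3343 and 3329 to 5178 and 4843. Rpl27, Rps26, Rpl6, Rps3, Rpsa, Rps9, Rplp2 and Rpl19 rose by 0.55 to 0.28. Rpl27a fell, from 205 and 132 to 96 and 101 (-0.66). Without old fresh replicate 2, 11 genes passed. Beta cell markers fell in the same comparison (7 of 9) and acinar markers fell (11 of 11), against 18.5% of all genes. Duct cell markers went the other way, with a sum over 4 genes of 2737 to 2813 at 3 mM and 1231 to 1478 in fresh old islets. The part of these markers in the ribosomal protein values was not tested.

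After culture at 11 mM, old islets differed from fresh ones in 3 genes of the family. Rps2 (0.63), Rps19 (0.41) and Rpl27 (0.34) were higher than in fresh ones and none was lower, against 5.56% of all genes (2.79% higher, 2.77% lower), with a median of 0.22 and 39 of the 43 above 0. Rps2 was at 2672 and 2603 after this culture, between its fresh and its 3 mM signals. Without old replicate 2 at 11 mM or old fresh replicate 1 no gene passed, and with same-numbered young arrays as blocks 7 did. In young islets only Rps19 passed (4.19% of all genes, 1.68% higher and 2.51% lower), at 3578 and 3610 against 2767 and 2762 (0.38, SE 0.09, adjusted p = 0.0224). It did not pass when any 1 of these 4 arrays was left out, and 3 genes passed with same-numbered young arrays as blocks. Rps2 was at 2730 and 2470 against 1826 and 1908 (0.47, adjusted p = 0.0719). The difference between the ages in this response passed for no gene of the family in limma's test (0.0238% of all genes, 0.0159% lower), and 2, Rpl27 and Rps26, had an unadjusted p under 0.05 (7.77% of all genes). The old 3 mM and the old 11 mM comparison share the fresh arrays, and the 3 against 11 mM comparison shares its arrays with both.

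Members with roles beyond the core of the ribosome are given here by their range over the 26 arrays. Rpl38, a large-subunit protein known for its part in translating Hox mRNAs, read 5368 to 10417 (median 8342.5), and neither its young (-0.16) nor its old log2 change (0.16) between 3 and 11 mM passed. Rpl11 read 2839 to 5735, with log2 changes of -0.05 and -0.35 that did not pass. Rplp2, which pairs with Rplp1 on the stalk, read 5284 to 7481, and Rpsa 4093 to 7789. Rps27l, which has a large array set term (1.14), read 880 to 3337. Its paralog Rps27 has a dim probe set, at 22 to 249. Rpl39, a protein of the exit tunnel, was dim too, at 60 to 230. For such dim genes the differences between arrays of a group are large: the log2 change of Rps27 between 3 and 11 mM was -0.85 in young islets, and it did not pass (adjusted p = 0.12).

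Different probe sets of a gene did not always give the same size or direction of change. Of the 43 genes 19 had more than 1 probe set past the filter, 88 probe sets in all. Tested one by one over 23047 probe sets, 34 of the 88 fell and none rose between 3 and 11 mM in young islets, which is 38.6% lower against 11.0% of all probe sets (10.7% higher). In old islets 13 were lower and 2 higher, and these 14.8% lower lie near the 10.2% of all probe sets (10.7% higher). Rps7 and Rpl22, singled out after their values were seen, are examples. The brightest probe set of Rps7 was at 6246 and 7385 at 3 mM and at 6805 and 6088 at 11 mM in young islets (-0.08, adjusted p = 0.685). Its other one, of the _x_at kind, was at 1372 and 1251 against 316 and 272 and fell (log2 change -2.10, SE 0.14, adjusted p = 5.45e-09), and it fell in old islets from 2898 and 3403 to 966 and 913 (-1.72). It was higher in old islets at 3 mM than in fresh ones, where it read 553 and 643 (2.37), a comparison in which the brightest gave 0.17.

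For Rpl22 the probe sets differed in size but not in direction. The brightest had log2 changes of -0.40 in young and -0.33 in old islets between 3 and 11 mM. The next had -0.58 at each age. The dimmest was at 1448 and 1166 at 3 mM and at 358 and 264 at 11 mM in young islets (-2.02, SE 0.19, adjusted p = 5.13e-07), and at 844 and 855 against 263 and 284 in old islets (-1.58). All 3 fell at both ages. Over the 19 genes, all probe sets of a gene lay on 1 side of 0 for 10 in young and for 4 in old islets. Whether the dimmer probe sets read the same transcript, another isoform or a related sequence was not tested.

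**Figure D5:**
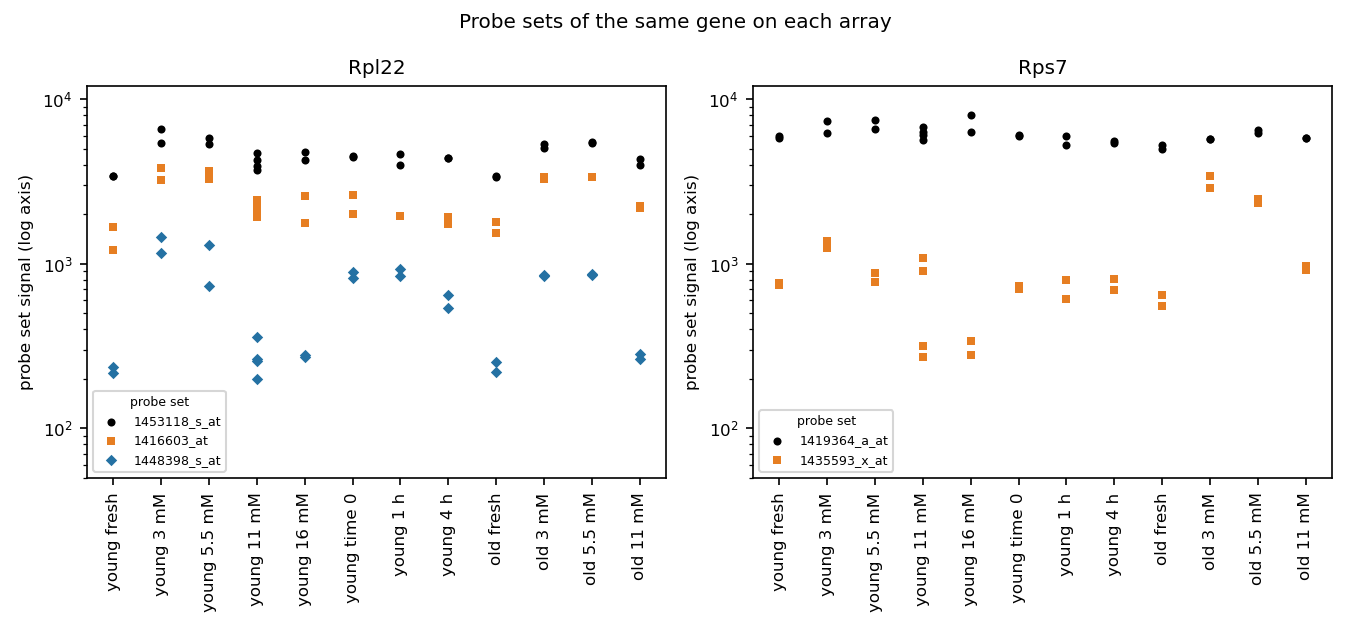
Signal on each array (log axis) of the probe sets of Rpl22 (left) and Rps7 (right), grouped by age and condition, with 1 colour and marker for each probe set. Among islets of 1 age cultured for 2 days, the dimmest probe set of each gene was higher on the 3 mM than on the 11 mM arrays, for Rps7 with 1372 and 1251 against 316 and 272 in young islets (set B), while the brightest probe set of Rps7 shows overlapping signals there. In the time course the dimmest signals overlap for Rps7 between time 0 and both later times and for Rpl22 between time 0 and 1 h.

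Other genes of protein synthesis moved beside the ribosomal protein genes. Of 39 ribosome biogenesis genes, 16 fell and none rose between 3 and 11 mM in young islets (median -0.44), and 15 were lower and 1 higher in old islets (-0.30). In old islets at 3 mM 28 of the 39 were higher than in fresh ones and none lower (0.58), against 16.6% higher and 18.5% lower of all genes. Nhp2, a protein of the particles that modify ribosomal RNA, fell by 1.59 on the log2 scale in young islets (adjusted p = 1.13e-06). The nucleolar proteins Npm1 and Ncl fell by 0.95 and 0.88 there, and Nolc1 and Gnl3 by 0.89 and 1.13 in old islets. At 4 h Nop56 (0.91) and Tsr1 (0.87) rose and Ubtf, a factor of ribosomal RNA transcription, fell (-0.44), where no ribosomal protein gene passed.

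Of 21 translation factors and further TOP mRNAs, 9 were lower and 1 higher at 11 mM in young islets (median -0.29), and 7 were lower and none higher in old ones (-0.20). The initiation factor subunit Eif3f fell by 0.84 and the elongation factor subunit Eef1d by 0.98 in young islets, and by 1.05 and 0.96 in old ones. Fau, which encodes a further small-subunit protein fused to a ubiquitin-like part, fell by 0.66 in young islets. Of 20 genes that control translation through mTORC1 or the stress response, 5 rose and 4 fell in young islets (13.3% and 13.1% of all genes). The genes named next are examples from this list, in which genes passed in both directions. Rragd, a GTPase that brings mTORC1 to the lysosome, fell by 1.55, while the mTORC1 inhibitors Sesn1 (0.81) and Sesn3 (1.00) rose. In old islets at 3 mM against fresh ones Rragd (1.29), the translation repressor Eif4ebp1 (2.25) and the TOP mRNA binding protein Larp1 (0.53) rose. At 4 h Rragd fell (-0.82), as did Eef2k, the kinase that slows elongation (-0.88).

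Of 76 mitochondrial ribosomal protein genes, 39 fell and none rose between 3 and 11 mM in young islets (median -0.36), and 24 were lower and 3 higher in old ones (-0.18). Of 70 nuclear genes of oxidative phosphorylation, 17 were lower and 3 higher in young islets (-0.16) and 11 lower and 8 higher in old ones (0.00). Of 37 proteasome genes, 6 were lower and 3 higher in young islets (-0.04) and 7 lower and 3 higher in old ones (-0.09). Of all genes 13.1% were lower and 13.3% higher in young islets, and 10.6% and 13.9% in old ones. Whether the cytosolic ribosomal protein genes differ from these lists was not tested.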

How the data were processed

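The deposited values are MAS5 signal intensities of 45101 probe sets on 26 arrays, computed by the authors (MAS5 is named in the submitters' processing notes) and, as the values show, scaled to a common trimmed mean. Per the labels' protocols, 50 ng of total RNA went through 2 cycles of cDNA synthesis. Probe sets with 1 symbol (34945) were kept, those above the array median on at least 2 arrays (23047) passed, and the brightest stood for its gene (12580 genes). With limma 3.58.1 (R 4.3.3), log2(signal + 16) was modelled as 12 group means and the array set (Gapdh 5'/3' ratio from 0.5 up), with an intensity trend and Benjamini-Hochberg adjustment over all genes. The procedure was tested on simulated data with independent noise. The simulation had no array set difference and no shared deviation of same-numbered arrays, so it does not cover these features of the data. Precision is limited by how few arrays each group has.

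The members, gene lists and tests were chosen with earlier results of these data known. Values on every array are given for members fixed by role and for up to 5 rises and 5 falls per comparison among those whose arrays do not overlap, with up to 3 genes per other list. Related genes and probe sets outside this were added after their values were seen. Same-numbered arrays deviated together within cultured young islets (correlations of 0.17 to 0.42 over 6 pairs of groups) and within the time course (0.55 to 0.63 over 3), which meets the rule used here for pairing. The tests reported have no block, and the blocked count is given beside a result where it differs by over 1.5 times. Among old cultured islets the correlations were 0.056 to 0.12. Alternatives were another offset, filter, normalization, probe set rule and symbol rule, no array set, replicate blocks and each array left out.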

Additional observations from a re-analysis of the deposited data

How the results depend on the processing

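Values are counts of ribosomal protein genes past the threshold. Without the array set as a term, 12 passed at 11 against 3 mM in young islets (11 lower, 1 higher; 8 of the 14 remained), 6 passed at 16 against 3 mM in young islets, 0 at 5.5 against 3 mM, 2 at 11 against 3 mM in old islets, 0 between fresh old and young islets, 2 in young islets at 11 mM against fresh and 0 in old ones. In that fit, of all genes called in these comparisons, 3 turned sign: Rpl37 from a fall to 0.16 (adjusted p = 0.788) and Rps24 to 0.13 (adjusted p = 0.766) at 11 against 3 mM in young islets, and Rps19 from a rise to -0.21 (adjusted p = 0.61, young 11 mM against fresh). With a replicate block within each array set, 1 passed at 5.5 against 3 mM in old islets and 0 between the ages at 11 mM. With a replicate block within cultured young islets and within the time course, an alternative chosen after seeing the data, 2 passed at 5.5 against 3 mM in young and 1 in old islets, 11 at 11 against 3 mM in old islets, 10 between fresh old and young islets, 3 and 7 in young and old islets at 11 mM against fresh, and 1 in the difference between the ages of the response to 11 against 3 mM. This block moved no other count by over 1.5 times.

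Without the filter 0 passed at 5.5 against 3 mM in young islets and 2 between fresh islets. Quantile normalization gave 23 at 16 against 3 mM (1 higher, 22 lower), 22 at 11 against 3 mM and 2 at 5.5 against 3 mM in young islets, 1 between fresh islets, 2 in young islets at 11 mM against fresh and 1 in the difference between the ages. Centring on the array median gave 9 between fresh islets, and all calls lower at 11 against 3 mM in old islets (7) and between the ages at 11 mM (2). Without the intensity trend 2 passed between fresh islets and 1 between the ages at 11 mM. With the mean of a gene's probe sets 2 passed between fresh islets and 5 in old islets at 11 mM against fresh. With a wider symbol rule 2 passed at 4 h, Rpl22l1 and Rpl7l1.

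With 1 array left out, the counts ranged from 7 to 15 at 11 and at 16 against 3 mM in young islets, 0 to 1 at 5.5 against 3 mM, 3 to 5 at 11 against 3 mM in old islets, 0 to 2 between fresh islets, 0 to 3 between the ages at 11 mM, 0 to 1 in young and 0 to 3 in old islets at 11 mM against fresh, 11 to 15 in old islets at 3 mM against fresh and 14 to 18 for the array set. A lone array was assumed to vary like the other groups. For the genes named by the rule, 96 of 162 such fits kept the call, 66 lost it and 0 reversed. Groups of 2 arrays limit what could pass, and signals near the array median (28 to 42) are least certain.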

Other observations

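Across the arrays the ribosomal protein genes tended to vary together. Over the 903 pairs of the 43 genes the median Pearson correlation of log2 signals was 0.37 on all 26 arrays, 0.37 within array set A and 0.61 within set B. The pairs share arrays and their scaling, and the correlations are a description with no test. Mitochondrial ribosomal protein genes, which are encoded in the nucleus and serve the mitochondrion's own ribosome, had named examples at both ages: Mrpl23 (-1.01), Mrps10 (-0.81) and Mrps18b (-1.17) fell between 3 and 11 mM in young islets, and Mrps24 (-1.12), Mrps30 (-1.16) and Mrpl15 (-0.74) in old ones. In old islets at 3 mM 43 of the 76 were higher than in fresh ones and none was lower, against 16.6% higher and 18.5% lower of all genes.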
